A study of Mus musculus with 8 samples.

Results

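Of the T-box transcription factor genes, 7 with known roles in the palate and face were examined in posterior palatal shelves of mouse embryos at E14.5: Tbx1, Tbx2, Tbx3, Tbx15, Tbx18, Tbx20 and Tbx22. The members were chosen by gene symbol, and each symbol stood on 1 of the 55536 genes in the table. RNA had been sequenced from shelves that had not yet elevated, with epithelium and mesenchyme together. The 4 control libraries came from Yapfl/fl;Tazfl/fl embryos, in which the genes for the Hippo pathway co-activators YAP and TAZ carry floxed alleles and no Cre is named. The 4 mutant libraries came from Yapfl/fl;Tazfl/fl;Col2Cre embryos, in which Cre is driven by regulatory sequence of the cartilage collagen gene Col2a1. Both groups share the floxed alleles, no library with Col2Cre and without the floxed alleles was among the samples, and an effect of the transgene itself and one of the deletion cannot be told apart. The labels do not tie each library to its own embryo, and the p-values reflect library-to-library spread only, which may be technical.

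T-box factors share a DNA-binding domain, the T-box, and act as activators or repressors depending on the member and its partners. In the palate Tbx22 is a repressor of the mesenchyme whose loss causes X-linked cleft palate with ankyloglossia in humans. Tbx1, the DiGeorge syndrome gene of the pharyngeal arches, acts in oral epithelium and in the muscle precursors of the arches, and loss of Tbx1, Tbx2 or Tbx3 has been tied to cleft palate in mice. The comparison asks how far the levels of these factors shift once Col2Cre is added to the floxed alleles.

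Among the members, Tbx2 and Tbx3 form a related pair, as do Tbx15 and Tbx18. These pairs had the most alike stretches of 90 bases, which are shown because near-identical genes could share reads. Over the whole coding sequence other pairs came as close, with Tbx1 and Tbx2 the same at 72.0% of aligned bases. Tbx2 and Tbx3 were the same at 71.9% of 1994 aligned coding bases in the GENCODE M21 transcripts. Their most alike stretch of 90 bases without a gap, coding bases 316 to 405 of Tbx2 and 310 to 399 of Tbx3, had 77 identical bases, and the capitals mark the 13 that differ.
Tbx2: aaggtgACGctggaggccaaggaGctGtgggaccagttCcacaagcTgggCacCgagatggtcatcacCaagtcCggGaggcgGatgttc
Tbx3: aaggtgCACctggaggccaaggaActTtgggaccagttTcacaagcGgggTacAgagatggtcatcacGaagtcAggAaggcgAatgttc
Of these 13 differences, 10 lay at the third base of a codon.

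Tbx15 and Tbx18 were the same at 70.2% of 1694 aligned coding bases. Their most alike 90 bases, coding bases 487 to 576 of Tbx15 and 583 to 672 of Tbx18, had 79 identical bases, and all 11 differences, in capitals, were at the third base of a codon.
Tbx15: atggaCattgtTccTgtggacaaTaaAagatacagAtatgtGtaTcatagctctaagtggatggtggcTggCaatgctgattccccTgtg
Tbx18: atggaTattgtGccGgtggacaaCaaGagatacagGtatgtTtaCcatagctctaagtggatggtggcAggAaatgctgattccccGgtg
Even so, the longest exact run shared by any transcripts of these genes was 23 bases, between Tbx15 and Tbx18, and 14 bases between Tbx2 and Tbx3. Over all 21 pairs of members the longest run was 11 to 23 bases. RefSeq promoter sequences of GRCm38.p6 were matched for 4 of the 7 members (Tbx1, Tbx18, Tbx20 and Tbx22, with 7 windows in all). None of these windows, the 250 bases before each start, held GGAATG, the core of the motif bound by the TEAD partners of YAP and TAZ, on either strand, against 12.6% of all such windows. The T-box half-site AGGTGT, searched on both strands, was in 1 window, of Tbx1, against 11.8% of all windows. For both windows of Tbx1 and 1 of Tbx22, the bases after the start were found whole in no GENCODE M21 transcript of that gene.

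Depth was even, with 29025089 to 32437977 reads per library recovered from the table. The values below are the authors' normalised counts (reads per gene, scaled by a single factor for each library), in which a count of 0 allows up to 3 reads, or 2.84 to 3.19 normalised counts (counting error only). The posterior palate genes Mn1, Meox2 and Barx1, chosen for this check of the tissue after their values were seen, were high in every library, with Mn1 from 8860 to 11830, Meox2 from 7677 to 11000 and Barx1 from 9916 to 12350 normalised counts. Yap1 averaged 9610 ± 429 over the 4 controls and 8463 ± 277 over the 4 mutants (SD). Every mutant lay below every control for Yap1, as for 1.91% of all genes tested. Wwtr1, the gene for TAZ, averaged 4879 ± 352 and 4007 ± 397 with an overlap. Neither passed (limma adjusted p = 0.751 for each). Mutant replicate 2 stood apart from the other libraries. Its counts of genes of the developing cerebral cortex, a list of 12 written after this was seen, summed to 6525 normalised counts, against 562 to 926 in controls and 745 in the lowest mutant. The gap from that sum to the next highest mutant made up 0.96 of the range of the 4 mutants. The mean log2 level of the 7 tested genes of that list relative to controls was 4.18 in mutant replicate 2. It was 0.53 to 1.18 in the other mutants and -0.26 to 0.31 in controls. These 7 genes had a median log2 difference of 2.07. It was 0.75 without mutant replicate 2, with 5 of 6 higher. Each member is therefore also given without that library.

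Levels between genes were compared per kilobase of annotated exon. In this order the controls had Tbx15 at 1217 ± 365 normalised counts per kilobase (SD, n = 4), Tbx2 at 907 ± 71.3, Tbx3 at 505 ± 18.2, Tbx1 at 281 ± 62.3, Tbx22 at 233 ± 43.2 and Tbx18 at 64.1 ± 13.8. Tbx20 was last at 0.108. The ranges of Tbx15 and Tbx2 overlapped over the 8 libraries, as did those of Tbx1 and Tbx22, so neither pair has an order beyond its spread. Tbx3 lay below Tbx2 and above Tbx1 in every library, and Tbx18 lay below Tbx22 in every library. In mutants Tbx2 had 1098 ± 102 and Tbx15 had 1042 ± 480 per kilobase, so the means of these genes stood in the other order.

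**Figure D1:**
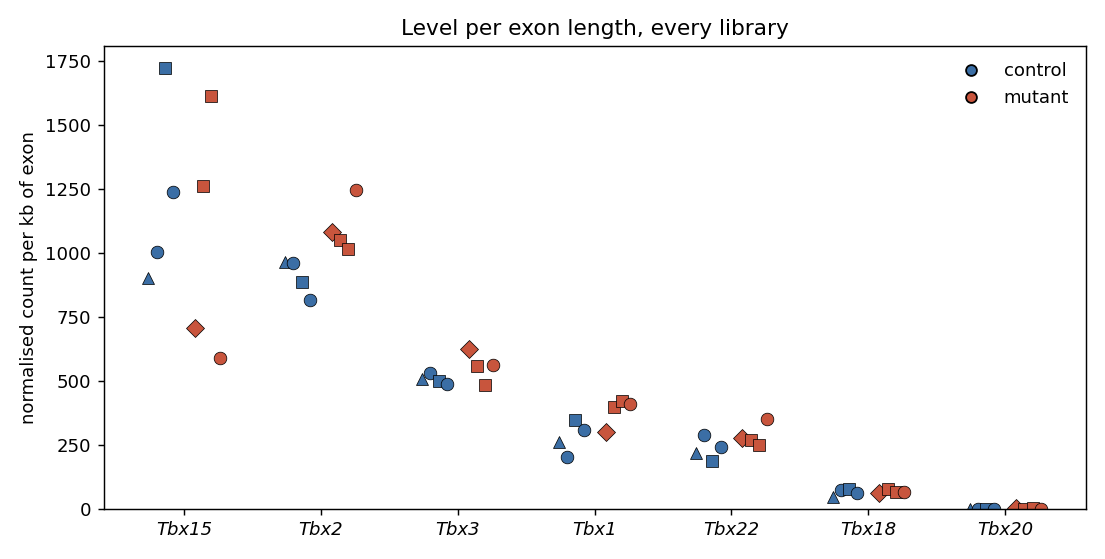
Normalised counts per kilobase of exon (y axis) for the 7 T-box genes (x axis), with 1 point per library, blue for the 4 controls and red for the 4 mutants, and a marker shape for each first number of the library titles. Tbx15 spreads from 590 to 1723 and overlaps Tbx2, while Tbx20 sits at the bottom, at up to 1.13.

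None of the 6 tested members passed the test of mutants against controls (limma on log2(normalised count + 1), Benjamini-Hochberg adjusted over 16647 genes), against 0.024% of all genes, and adjusted p ran from 0.751 to 0.961. edgeR and DESeq2 on the recovered reads called none of them either, against 0.03% and 0.187% of all genes. Without adjustment, p was under 0.05 for 3 members, Tbx1, Tbx2 and Tbx22, all higher in mutants, where 2.78% of all genes were past that level in that direction and 6.57% in either. The mean log2 level was higher in mutants for 5 of the 6, against 50% of all genes, and lower for Tbx15. The median log2 difference of the 6 was 0.21, beside -0.00015 over all genes tested. As the 6 were chosen together, no test was made of these shares.

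**Figure D2:**
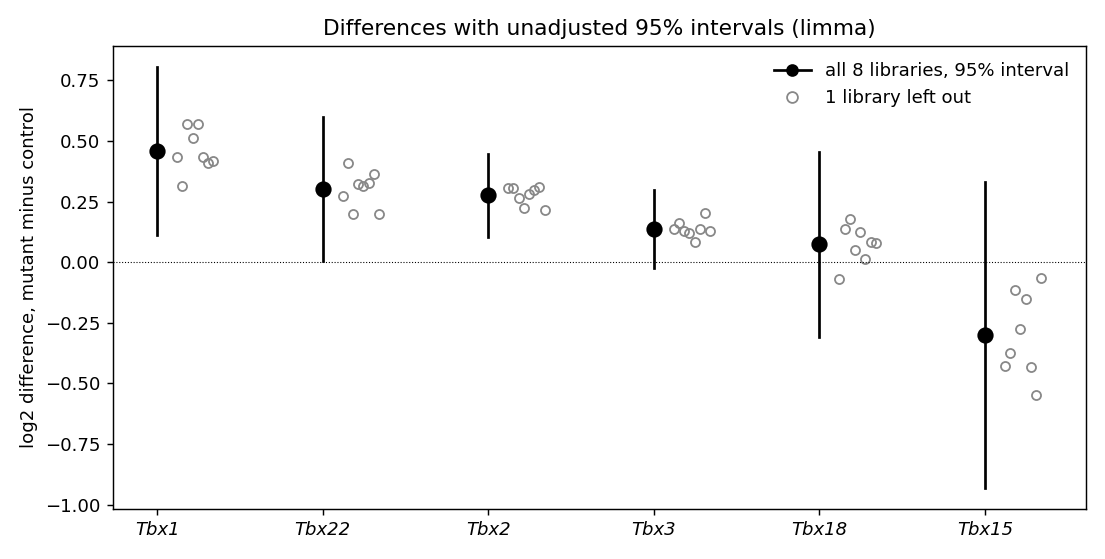
Log2 difference of mutants minus controls (y axis) for the 6 tested members (x axis), with black points and lines for all 8 libraries with the unadjusted 95% interval from limma and open points for fits that leave out 1 library each. The intervals of Tbx1, Tbx2 and Tbx22 lie above 0, and the open points of Tbx18 lie on both sides of 0.

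The smallest p of the members was that of Tbx2, which with Tbx3 forms a pair of repressors. Tbx2 (ENSMUSG00000000093, chromosome 11 from 85832551 to 85841948, plus strand) encodes a repressor that holds back cell cycle inhibitor genes and acts downstream of BMP signals. Its normalised counts were 3494.7, 3487.9, 3218.4 and 2952.0 in control replicates 1 to 4 and 3923.7, 3801.9, 3688.5 and 4518.2 in mutant replicates 1 to 4. Every mutant library lay above every control library, as for 1.86% of all genes tested (3.77% had no overlap in either direction), and Tbx2 was the only member with no overlap. The means were 3288 ± 258 and 3983 ± 369 (SD, n = 4 each), a log2 difference of 0.28 (SE 0.0781), or 1.21-fold with an unadjusted 95% interval of 1.08 to 1.36. The limma adjusted p was 0.751. An exact two-sided permutation test of the 8 libraries gave 0.0286, the smallest p that 4 against 4 can give. That value follows from the lack of overlap and adds nothing to it. Without mutant replicate 2 the difference was 0.30, and within the libraries that share a first title number it was 0.49 for number 2057 (2 controls, 1 mutant) and 0.22 for number 3602 (1 control, 2 mutants).

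Tbx3 (ENSMUSG00000018604, chromosome 5 from 119670669 to 119684724, plus strand), the closest relative of Tbx2 and the ulnar-mammary syndrome gene, had the lowest coefficient of variation of the tested members among controls, 3.61%. Controls had 3347.8, 3509.4, 3293.3 and 3227.0 normalised counts and mutants 4129.9, 3690.2, 3213.8 and 3727.2. Mutant replicate 3 lay below all controls and the other mutants lay above them, so the groups overlapped. Mutants minus controls gave a log2 difference of 0.14 (SE 0.0738) and a limma adjusted p of 0.773. The unadjusted 95% interval ran from -0.024 to 0.30. The difference was 0.14 without mutant replicate 2 and 0.081 without mutant replicate 1. The antisense RNA gene Tbx3os1, which overlaps Tbx3 by 697 bases on the other strand, had 545 ± 153 in controls and 541 ± 153 in mutants. No source used here gives the strand setting of the counting, so reads in that overlap cannot be assigned to either gene.

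The balance of the pair was read as the ratio of Tbx2 to Tbx3 normalised counts within a library, without regard to exon length. It was 1.04, 0.994, 0.977 and 0.915 in controls and 0.950, 1.03, 1.15 and 1.21 in mutants. The mean log2 ratio was -0.027 ± 0.0787 over controls and 0.11 ± 0.157 over mutants (n = 4 each, SD). The exact two-sided permutation p of the difference was 0.200. The groups overlapped, since mutant replicates 1 and 2 lay inside the control range.

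Tbx1 (ENSMUSG00000009097, chromosome 16, minus strand, from 18581713 to 18586969 in the authors' table and from 18580979 to 18590671 in GENCODE M21) had the largest difference of the members on the log2 scale. Controls had 921.1, 716.5, 1225.0 and 1085.2 normalised counts, and mutants had 1049.2, 1397.0, 1475.2 and 1444.4. Mutant replicates 2 to 4 lay above all controls, and mutant replicate 1 lay between control replicates 1 and 4. The means were 987 ± 219 and 1341 ± 197 (SD, n = 4 each), a log2 difference of 0.46 (SE 0.159), or 1.37-fold with an unadjusted 95% interval of 1.08 to 1.75. The limma adjusted p was 0.754 and the exact two-sided permutation p 0.0857. The difference was 0.43 without mutant replicate 2, 0.57 without mutant replicate 1, and 0.31 when control replicate 2, lowest for Tbx1, was left out. Within title numbers it was 0.71 for 2057 and 0.23 for 3602.

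Because Tbx1 is active in oral epithelium, the epithelium markers stand beside it. Of 19 markers, 18 had higher means in mutants, against 50% of all genes, and 0 passed over all genes (limma, edgeR and DESeq2). An unadjusted limma p under 0.05 was reached by 6 of them, where 6.57% of all genes had such a p. The median log2 difference of the list was 0.22. None of the markers was at 0. Their summed level ran from 43580 to 60230 normalised counts in controls and from 48160 to 84540 in mutants. The mean log2 level of the list was lowest in control replicate 2, at -0.27 relative to the control mean, which was also the lowest library for Tbx1. Without mutant replicate 2 the median of the list was 0.10, with 17 of 19 higher. The list was highest in that library, at 0.70, while Tbx1 was highest in mutant replicate 3, where the list stood at 0.16. The part of the epithelial share in the Tbx1 values was not tested, and in bulk tissue more cells of a type and more RNA per cell cannot be told apart. Among 9 regulators of the muscle of the arches, in which Tbx1 also acts, 8 were tested and 4 had higher and 4 lower means. That split hung on single libraries, with 2 higher and 6 lower without mutant replicate 3, and 7 higher and 1 lower without mutant replicate 4. Ripply3, which encodes a co-repressor that binds Tbx1, averaged 94.8 ± 28.3 over controls and 131 ± 15.2 over mutants, which overlapped (adjusted p = 0.773 in limma).

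Tbx22 (ENSMUSG00000031241, chromosome X from 107667964 to 107688978, plus strand) had 1205.4, 1601.9, 1033.1 and 1335.6 normalised counts in controls and 1536.4, 1488.8, 1375.8 and 1949.1 in mutants. Control replicate 2 lay among the mutants, above 3 of them, and the other controls lay below all mutants. The means were 1294 ± 240 and 1588 ± 250 (SD, n = 4 each), a log2 difference of 0.30 (SE 0.136), with an unadjusted 95% interval from 0.0027 to 0.60 on that scale, or 1.23-fold. The limma adjusted p was 0.754 and the exact two-sided permutation p 0.171. Within title numbers the difference was 0.41 for 2057 and 0.47 for 3602, and with the title number as a block it was 0.44 (limma adjusted p = 0.556). It was 0.33 without mutant replicate 2 and 0.20 without either mutant replicate 4 or control replicate 3.

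**Figure D3:**
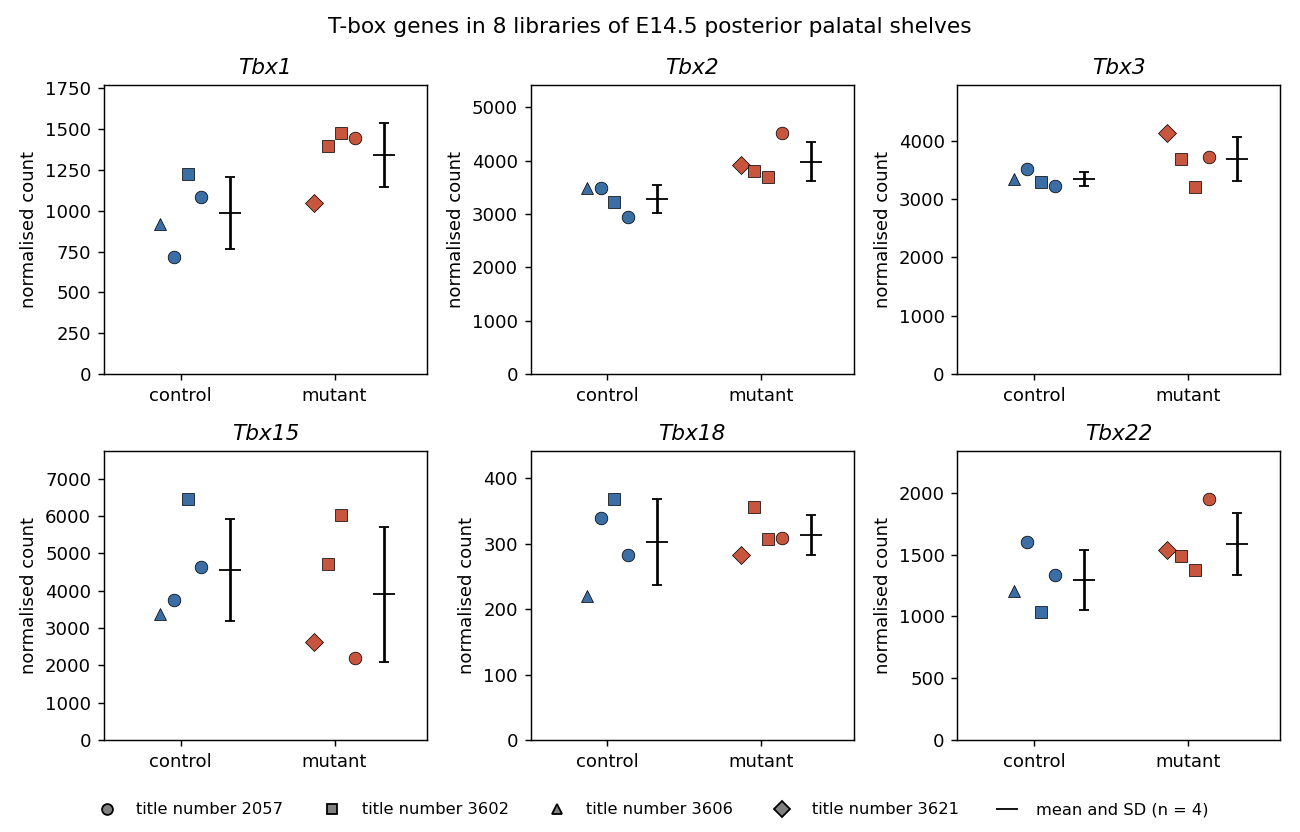
Normalised counts (y axis, from 0) of the 6 tested members in the 4 control (blue) and 4 mutant (red) libraries, with marker shapes for the first number of each title and black bars for the mean and SD. The groups of Tbx2 do not overlap, and the square markers of number 3602 hold 3 of the 4 highest values of Tbx15.

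Tbx15 and Tbx18 are related repressors of mesenchyme, of which Tbx15 acts in limb, facial and skull bones and in muscle fibre type, and Tbx18 in mural cells, limb and heart. Tbx15 (ENSMUSG00000027868, chromosome 3 from 99240381 to 99354259, plus strand) varied most of the tested members, 2.92-fold between its highest and lowest library. Controls had 3384.0, 3763.2, 6455.3 and 4637.2 normalised counts and mutants 2640.1, 4720.9, 6041.7 and 2209.0. The mutants held the lowest 2 values and one of the highest 2, so the spread ran through both groups, with a coefficient of variation of 30.0% in controls and 46.1% in mutants. The log2 difference was -0.30 (SE 0.289), at a limma adjusted p of 0.877, and its unadjusted 95% interval from -0.93 to 0.33 spans 0. It was -0.065 without mutant replicate 4, -0.12 without control replicate 3, -0.15 without mutant replicate 1, -0.55 without mutant replicate 3 and -0.43 without mutant replicate 2. Within title numbers it was -0.92 for 2057 and -0.27 for 3602, and with the number as a block -0.60 (limma adjusted p = 0.593).

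The skeletal muscle markers were highest and lowest in the same libraries as Tbx15, though not in the same order throughout. The mean log2 level of these 14 markers relative to controls was highest in mutant replicate 3 (0.84), mutant replicate 2 (0.31) and control replicate 3 (0.22), the same 3 libraries that were highest for Tbx15, and all carry title number 3602. It was lowest in mutant replicate 4 (-0.98) and mutant replicate 1 (-0.27), the lowest for Tbx15 too. The summed level of the markers ran from 42930 to 54980 normalised counts in controls and from 22030 to 83390 in mutants, with none at 0. Control replicate 4, next highest for Tbx15, stood at -0.14 for the muscle markers. The pericyte and mural markers were also highest in mutant replicate 3 (0.23), mutant replicate 2 (0.19) and control replicate 3 (0.091), with control replicate 2 close behind (0.084). They too were lowest in mutant replicate 4 (-0.24), and the gene Des is on both lists. The part of either list in the spread of Tbx15 was not tested.

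**Figure D4:**
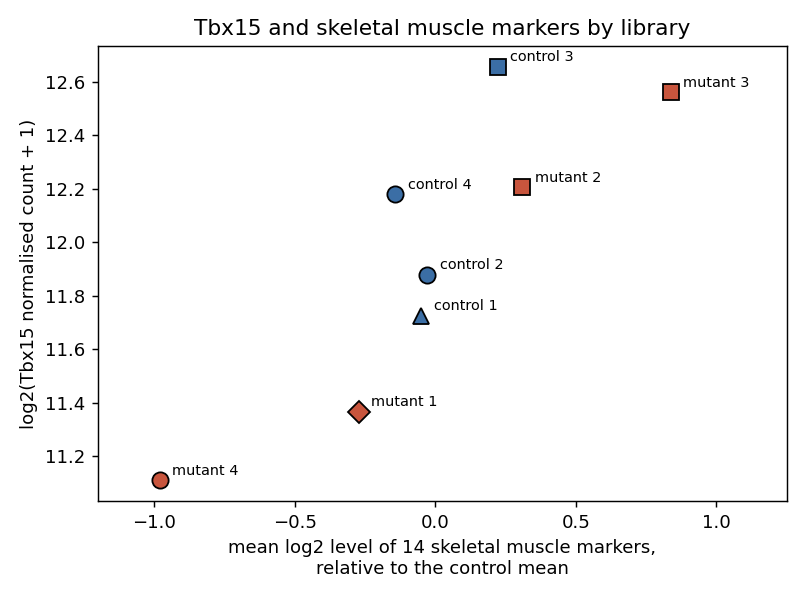
Log2(Tbx15 normalised count + 1) (y axis) against the mean log2 level of 14 skeletal muscle markers relative to the control mean (x axis), with 1 labelled point per library, blue for controls and red for mutants, and marker shapes for the first title number. Mutant replicate 4 is lowest on both axes, at -0.98 on the x axis, and the squares of number 3602 are the 3 highest for Tbx15.

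Tbx18 (ENSMUSG00000032419, chromosome 9 from 87702800 to 87731260, minus strand) had 220.4, 338.7, 368.3 and 282.8 normalised counts in controls and 283.0, 355.9, 306.8 and 309.5 in mutants, all of which lay inside the control range. Between groups the log2 values differed by 0.074 (SE 0.175), at a limma adjusted p of 0.961 and with an unadjusted 95% interval from -0.31 to 0.46. Its sign rested on control replicate 1, the lowest library, without which it was -0.068. It was 0.012 without mutant replicate 2 and 0.18 without control replicate 3. The pericyte and mural markers had 6 of 10 higher and 4 lower means with a median of 0.077. The gene D030062O11Rik, which overlaps Tbx18 by 1976 bases on the other strand, had 27.5 ± 16.1 in controls and 30.9 ± 7.76 in mutants. Tbx15 exceeded Tbx18 in every library, by 11.1 to 17.5-fold in controls and 7.14 to 19.7-fold in mutants without regard to length. The mean log2 ratio differed by -0.37 (exact two-sided permutation p = 0.343).

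Tbx20 (ENSMUSG00000031965, chromosome 9 from 24718138 to 24774303, minus strand), a factor of heart and cranial motor neurons, was nearly absent from the counts and was not tested. It had 1, 0, 4 and 0 reads in controls and 10, 0, 14 and 0 in mutants. The 4 libraries without a read lay in both groups, and no fold is given at this level. Of its heart partners, Gata4 had 0 reads in every library, and Nkx2-5 had at most 11.8 normalised counts.

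By pattern over the 8 libraries, without regard to group, the genes most like each member were named from 12443 others with a mean of at least 50 normalised counts. These are descriptions, the highest of many values of Pearson's r over 8 libraries in which all genes share the same tissue pieces and depth. Tbx2 was most like Rasl12 (r = 0.97), Exosc4 (0.95) and Cdk4, a cell cycle kinase gene (0.93). Tbx1 was most like Btf3l4 (0.97), Faah (0.96) and Llgl2, an epithelial polarity gene (0.95). Tbx3 was most like Fam135a (0.96), Prelid3a (0.94) and Msrb2 (0.94), and Tbx22 was most like Mtif2 (0.95), Mrfap1 (0.94) and Ap1s1 (0.93). Tbx15 was most like Zbtb10 (0.98), Prdm2 (0.98) and the growth factor gene Fgf5 (0.97), and Tbx18 was most like Slc1a4 (0.96), the netrin receptor gene Dcc (0.96) and Mob3b (0.95). After leaving out the 2 libraries farthest from each member's median, these r ran from 0.73 for Tbx22 with Mrfap1 to 0.98 for Tbx1 with Btf3l4.

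Of the 10 other T-box genes, 4 were tested and none passed with limma, edgeR or DESeq2. Only 1 of them, Mga, had an unadjusted limma p under 0.05, where 6.57% of all genes had such a p. Mga, a large factor with both a T-box and a MAX-binding domain, was the most abundant, at 5059 ± 210 in controls and 4509 ± 274 in mutants (log2 difference -0.17, SE 0.0589, limma adjusted p = 0.754). Mutant replicate 3, at 4907, lay above control replicate 2, at 4834, and the other mutants lay below all controls. Tbx4, a hindlimb and lung factor, had 119 ± 27.1 and 126 ± 35.5, Tbx6 26.3 ± 5.67 and 31.7 ± 10.4, and T, the brachyury gene, 10.9 ± 1.66 and 15.4 ± 10.9. The log2 difference of Tbx6 was 0.22, and 0.084 without mutant replicate 3. The signs of T and Tbx4 turned when 1 library was left out, to -0.26 without mutant replicate 2 and -0.086 without control replicate 4. Tbx19 had no read in any library, and Tbx5, Tbx10 and Tbx21 had means of 0 to 3.67.

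The 2 T-box genes of the cerebral cortex, Tbr1 and Eomes, behaved differently from all others and were too sparse to be tested. Tbr1, a factor of early cortical neurons, had 8.5, 0.0, 3.1 and 5.9 normalised counts in controls and 30.1, 437.3, 8.7 and 14.2 in mutants. Eomes, a factor of cortical intermediate progenitors, had 0.0, 0.0, 16.4 and 0.0 in controls and 24.3, 708.9, 7.7 and 0.0 in mutants. Both were by far highest in mutant replicate 2. Tbr1 was also at 8.7 to 30.1 in the other mutants, against 0.0 to 8.5 in controls. The nearest libraries of the groups, mutant replicate 3 and control replicate 1, had 9 and 8 reads, a gap within counting error. Lhx2, a factor of the forebrain among other tissues, was high in the same library, at 1117 normalised counts, with a log2 difference of 1.44 over all libraries that was 0.35 without it. In that library Tbx1, Tbx2, Tbx3, Tbx15 and Tbx22 lay inside the range of the other mutants, and Tbx18 lay above it at 355.9.

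**Figure D5:**
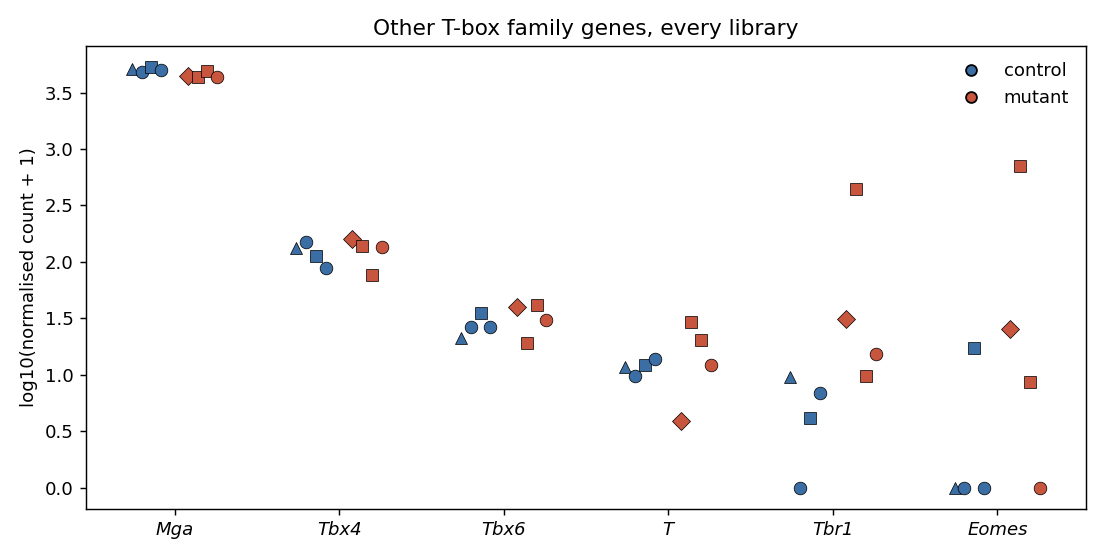
Log10(normalised count + 1) (y axis) of 6 other T-box genes (x axis), with 1 point per library, blue for controls and red for mutants, and marker shapes for the first title number. Mga is high in every library, and 1 red square, mutant replicate 2, stands above the rest for Tbr1 (437.3) and Eomes (708.9).

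In the lists of genes around the T-box factors, limma, edgeR and DESeq2 each called 0 genes. An unadjusted limma p under 0.05 was found for 1 or 2 genes a list, where 6.57% of all genes had such a p. Among 19 partners and co-repressors, 15 were tested, 6 had higher and 9 lower means, and the median log2 difference was -0.058. Eya1, a transcriptional co-activator in tissues where Tbx1 acts, was lower in every mutant library, at 1391 ± 149 in controls and 1123 ± 123 in mutants (log2 difference -0.31, SE 0.103, limma adjusted p = 0.754), where 1.91% of all genes had no overlap in that direction. The Groucho co-repressor gene Tle3 had 6207 ± 220 and 6702 ± 477, and the SUMO ligase gene Pias1 1616 ± 57.2 and 1477 ± 98.9.

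Of 18 signals and regulators upstream of T-box genes, 17 were tested, 8 with higher and 9 with lower means, and none passed. Bmp2 had 1262 ± 104 in controls and 988 ± 217 in mutants, Bmp7 4295 ± 238 and 4844 ± 558, and Shh, the hedgehog ligand of palatal epithelium, 368 ± 42.2 and 483 ± 116. Cyp26b1, which breaks down retinoic acid, had 2183 ± 84.0 and 1802 ± 338. All these differences shrank more than 1.5-fold without mutant replicate 2, to a log2 difference of -0.23 for Bmp2, 0.091 for Bmp7, 0.23 for Shh and -0.17 for Cyp26b1.

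Of 14 reported targets of T-box factors, 12 were tested, 5 with higher and 7 with lower means, and none passed. Mef2c, a muscle, endothelial and skeletal factor gene that Tbx1 is reported to repress, was lower in every mutant library, as were 1.91% of all genes tested. It had 6427 ± 373 and 4988 ± 893 (log2 difference -0.38, SE 0.109, limma adjusted p = 0.754). Fgf10, a mesenchymal growth factor gene reported to be activated by Tbx1, had 446 ± 81.7 and 333 ± 111, a log2 difference of -0.47 that was -0.22 without mutant replicate 2. Cdh1, E-cadherin, had 4937 ± 821 and 5901 ± 1340, and Flt4, a lymphatic receptor gene, 1773 ± 313 and 1538 ± 220, differences of 0.25 and -0.20 that were 0.10 and -0.093 without that library. Endothelium markers, which stand beside Mef2c and Flt4, had lower means for 11 of 14 genes with a median of -0.15, none at 0 and summed levels of 23900 to 25700 in controls and 18030 to 24020 in mutants. Without mutant replicate 2 their median was -0.075, with 9 of 14 lower, and their part was not tested.

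The 27 palate patterning factors split evenly, with 13 of 26 tested higher and 13 lower and a median of 0.0034. Osr2, which promotes shelf growth, had 6359 ± 462 and 7105 ± 816, Dlx5 1165 ± 360 and 787 ± 76.4, and Msx2 1222 ± 336 and 879 ± 411, the last with a log2 difference of -0.61 that was -0.14 without mutant replicate 2. Alx1 had 74.5 ± 42.2 and 39.6 ± 29.9. Without the same library the difference of Alx1 went from -1.22 to -0.51 and that of Osr2 from 0.16 to 0.082. Osteogenic markers, which stand beside Dlx5, Msx2 and Bmp2, had lower means in mutants for all 11 tested of 12 with a median of -0.93, Bglap at 0 in every library, and summed levels of 220100 to 250600 in controls and 122400 to 202800 in mutants. Of these, limma and edgeR called 0, DESeq2 called 2, Ibsp and Phex, genes of bone mineral matrix and phosphate handling, and 6 had an unadjusted limma p under 0.05, where DESeq2 called 0.187% of all genes and 6.57% had such a p. The median of the list was -0.50 without mutant replicate 2, with all 11 still lower, and -0.54 without control replicate 1, with 10 lower. When 1 library was left out the limma adjusted p went as low as 0.0055 for Phex and 0.023 for Ibsp. The part of these cells in the values of Dlx5, Msx2 and Bmp2 was not tested.

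The other tissue lists had 0 genes called by limma, edgeR or DESeq2. They held 0 to 6 genes a list at an unadjusted limma p under 0.05, where 6.57% of all genes had such a p. The limma adjusted p of Erbb3, a Schwann cell marker, went as low as 0.031 when 1 library was left out. Chondrogenic markers had 1 higher and 9 lower means (median -0.45), Schwann cell markers 7 higher and 2 lower (0.45) and erythroid markers 7 higher and 0 lower (0.29). Those medians were -0.25 for chondrogenic and 0.16 for erythroid markers without mutant replicate 2, -0.21 for chondrogenic markers without control replicate 1, and 0.20 for Schwann cell markers without mutant replicate 1. Neuron markers had 5 in each direction (-0.13), and dental epithelium markers had 4 higher and 3 lower (0.048).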

How the data were processed

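The analysis used 8 libraries of total RNA, 4 control and 4 mutant by the genotype labels, with replicates numbered in accession order. The signal values are normalised counts deposited by the authors, reads per gene scaled by a single factor for each library. Per the submitters' processing notes, STAR 2.7.2 and DESeq2 were among the tools. The counter, strand setting, annotation and build were not given in the sources used here. Positions equalled GENCODE M21 (GRCm38) for 95.2% of 52489 IDs. The log2 values, variance-stabilised by the authors and deposited beside the counts, served in 1 alternative.

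limma 3.58.1 in R 4.3.3 was fitted to log2(normalised count + 1) with an intensity trend and genotype as the only term, on the 16647 genes with at least 10 in at least 4 libraries, two-sided, at an adjusted p of 0.05. Intervals are at the 95% level. Whole reads were recovered within 0.06 reads for 100% of values from 50 to 5000, for edgeR 4.0.16 and DESeq2 1.42.0; in mutant replicate 4 a read is worth 1.01 normalised counts, a step too near 1 to be checked independently. Exact permutation used all 70 assignments. Exon lengths came from GENCODE M21, whose Tbx1 model differs from the table's. The limma script was tested on simulated data.

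Named were Yap1, Wwtr1, the members, tested T-box genes, up to 4 genes per list with the smallest p (not all are named), and the 3 genes of highest Pearson r with each member over the 8 libraries, leaving out predicted and sex-linked genes. The members and lists were chosen with earlier results of these data known, and some list genes are not reported here. Also tried were a pseudocount of 0.5 or 8, dropping the filter, keeping genes with a mean from 50 up, TMM and upper-quartile scaling, the stabilised values, library weights, robust variances, the title number as a block, each library left out, edgeR and DESeq2.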

Additional observations from a re-analysis of the deposited data

Results flagged for a closer look

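The level of Tbr1 in mutant replicate 2, 437.3 normalised counts, lay far from the other mutants, which had 8.7 to 30.1. Eomes was at 708.9 in the same library, against 0.0 to 24.3 in the other mutants, and the summed cerebral cortex genes were at 6525, a sum that is no separate evidence, since that list was written after this library was seen to stand apart. Eomes in control replicate 3, at 16.4 normalised counts, was the only control above 0. With the other controls tied at 0, any value above 0 would have been marked there. These values were marked by the gap to the nearest library relative to the range of the 4, in 34 groups of 4 of which chance marks about 1 in 20. No group of any tested member was marked in this way.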

How the results depend on the processing

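No member was called under any of the 20 alternatives. The differences of Tbx1, Tbx2, Tbx3 and Tbx22 stayed above 0 and that of Tbx15 below 0 in all of them. Tbx2 ran from 0.21 to 0.36 with limma, edgeR or DESeq2 adjusted p from 0.211 (DESeq2) to 0.976, and Tbx1 from 0.24 with the stabilised values to 0.57. Tbx3 went to 0.081 without mutant replicate 1 and Tbx22 to 0.17 with the stabilised values, which compress differences. Tbx18 turned to -0.078 with the title number as a block and ran from -0.068 without control replicate 1 to 0.18 without control replicate 3. The count over all genes, 4, became 28 with DESeq2 and 0 with robust variances, and 0 to 11 when 1 library was left out (0 without control replicate 2 or 4 or mutant replicate 3, 11 without control replicate 3, 8 without mutant replicate 4); the cause was not tested. The log2 ratio of Tbx2 to Tbx3 differed by 0.083 to 0.20 and that of Tbx15 to Tbx18 by -0.63 to -0.14 when 1 library was left out. No paired analysis was possible because the replicate numbers are accession order; the block on the first number of the titles, whose meaning the labels do not give, draws only on numbers 2057 and 3602 and called 6 genes. The number of libraries, 4 a group, limits the precision to the intervals given. When 1 library was left out, the median turned sign for the lists of other T-box genes, palate patterning factors, reported targets, branchiomeric muscle, pericyte, skeletal muscle and neuron genes, an alternative chosen after seeing the data.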
